A study of Mus musculus with 16 samples.

Results

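The regions described here are the 372 of 26213 accessible regions in C2C12 myoblasts that more libraries called a peak in when an extra copy of the muscle transcription factor MyoD1 was switched on with doxycycline (dox), both in growth medium (GM) and in differentiation medium (DM). ATAC-seq, which tags open chromatin through a transposase that cuts and adds adapters where DNA is exposed, gave the peaks. The regions were built by merging the 14710 strongest peaks of each of 14 libraries, 14710 being the length of the shortest list. A region was a member when the share of libraries with a peak was higher with dox than without in GM and also in DM, and when the number of +dox libraries with a peak, of 7, exceeded the number of no dox libraries, of 7, by at least 4. The members were therefore chosen on the dox contrast itself, so every difference between +dox and no dox at them is given as a description with no test. The same rule turned round, for regions with fewer peaks under dox, gave 322 regions, which are called the lost regions. The gained rule took 1.42% of all regions and the lost rule 1.23%.

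All cells were C2C12, a mouse skeletal myoblast line that fuses into myotubes when serum is withdrawn, and all carried their own MyoD1 plus a dox-inducible Halo-MyoD1 transgene. By the study's methods the transgene was placed by PiggyBac transposition under the TRE3G promoter in a mixed population rather than 1 clone, so its dose can differ between cells. The 4 groups were GM no dox and GM +dox (4 libraries each), and DM no dox and DM +dox (4 deposited libraries each), with dox or vehicle given for 24 h. Wells held 75000 cells at seeding in GM but 300000 in DM, so medium and cell density cannot be told apart. Replicate 1 of both DM groups was set aside in the study as an outlier in quality control, which left 3 DM libraries for each arm of the rule. In a bulk sample, more cells with an open region and a region more open in each cell cannot be told apart.

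MyoD1 is a basic helix-loop-helix factor that binds, with E proteins, the E-box, a short element spelled CANNTG whose inner letters set how strongly each factor binds; CAGCTG and CAGGTG are the forms most used by MyoD1 in muscle cells. It acts as a pioneer factor, able to engage closed chromatin and to recruit enzymes that open it, and it starts the program that turns a myoblast into a muscle fiber. Myoblast enhancers also hold sites for AP-1 (TGANTCA), a factor of growing and stressed cells, for TEAD (CATTCC, the M-CAT element of muscle genes) and for RUNX factors (TGTGGT).

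The sequences below show what 9 of the most consistently gained regions look like around their summits, the position of highest coverage in their strongest peak. They are the leading members by the difference in the number of libraries, ties ordered by mean peak strength under dox, with 2 of the first 11 left out. Each is 201 bases of the GRCm38 (mm10) plus strand, centered on the summit, in lower case. Capitals mark the E-box CAGCTG, which reads alike on both strands. They also mark the E-box CAGGTG, which reads as CACCTG from the opposite strand. Further marked are the TEAD element CATTCC, which reads as GGAATG from the opposite strand, and the AP-1 element TGANTCA.
Adcy7, chr8:88265648-88265848: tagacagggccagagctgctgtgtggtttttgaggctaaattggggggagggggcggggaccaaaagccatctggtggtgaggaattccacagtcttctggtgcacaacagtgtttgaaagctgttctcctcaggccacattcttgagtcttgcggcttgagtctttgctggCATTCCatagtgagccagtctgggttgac
Ptpre, chr7:135551604-135551804: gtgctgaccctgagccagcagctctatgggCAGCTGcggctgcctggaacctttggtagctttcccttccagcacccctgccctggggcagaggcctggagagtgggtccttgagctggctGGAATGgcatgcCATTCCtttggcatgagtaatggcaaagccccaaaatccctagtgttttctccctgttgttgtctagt
Ntng2, chr2:29245476-29245676: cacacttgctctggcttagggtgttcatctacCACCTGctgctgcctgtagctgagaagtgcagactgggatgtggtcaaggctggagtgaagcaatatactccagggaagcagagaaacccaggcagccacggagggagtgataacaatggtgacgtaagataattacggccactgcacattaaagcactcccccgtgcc
Med16, chr10:79900992-79901192: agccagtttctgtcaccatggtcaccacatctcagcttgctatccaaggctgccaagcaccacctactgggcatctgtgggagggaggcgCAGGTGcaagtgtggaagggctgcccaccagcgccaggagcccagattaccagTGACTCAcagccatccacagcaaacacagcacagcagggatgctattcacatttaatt
Ubap2, chr4:41257877-41258077: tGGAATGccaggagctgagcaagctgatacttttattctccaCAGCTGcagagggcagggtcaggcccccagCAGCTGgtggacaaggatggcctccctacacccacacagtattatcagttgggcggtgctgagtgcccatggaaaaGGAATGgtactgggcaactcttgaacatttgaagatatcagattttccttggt
Ankrd2, chr19:42035512-42035712: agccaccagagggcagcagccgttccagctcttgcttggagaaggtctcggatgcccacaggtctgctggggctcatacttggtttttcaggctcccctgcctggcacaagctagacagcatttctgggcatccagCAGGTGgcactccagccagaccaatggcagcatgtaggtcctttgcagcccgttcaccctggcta
Ube2d1, chr10:71292327-71292527: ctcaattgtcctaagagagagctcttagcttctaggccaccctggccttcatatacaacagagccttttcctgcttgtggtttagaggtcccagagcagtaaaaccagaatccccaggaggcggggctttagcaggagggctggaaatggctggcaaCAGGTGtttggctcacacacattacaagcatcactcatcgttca
Dot1l, chr10:80757792-80757992: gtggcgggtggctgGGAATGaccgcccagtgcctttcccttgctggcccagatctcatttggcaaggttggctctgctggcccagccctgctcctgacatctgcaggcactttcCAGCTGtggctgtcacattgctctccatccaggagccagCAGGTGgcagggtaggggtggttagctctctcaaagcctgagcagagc
Zfp280d, chr9:72217399-72217599: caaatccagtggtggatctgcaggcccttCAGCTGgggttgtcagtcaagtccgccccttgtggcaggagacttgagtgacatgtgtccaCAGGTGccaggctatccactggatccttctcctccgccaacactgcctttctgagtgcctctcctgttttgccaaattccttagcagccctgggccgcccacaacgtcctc

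Of these 9 windows, 8 held CAGCTG or CAGGTG, and the Adcy7 window held CATTCC alone. Over all 372 members 44.4% held CAGCTG or CAGGTG, and over all regions 25.6%. The windows lead the order by the value the rule used, so they do not stand for the members at large. The window in Ubap2 (a ubiquitin-binding protein) carried 2 copies of CAGCTG between 2 copies of GGAATG. The window in Ptpre, which encodes a receptor-type tyrosine phosphatase, had CAGCTG upstream of the summit and a facing pair of GGAATG and CATTCC downstream. The window in Dot1l, which encodes the histone H3 lysine methyltransferase of transcribed genes, had a GGAATG first, then a CAGCTG and last a CAGGTG. A match here is a match of letters and does not show that a factor was bound.

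The libraries differed in the length of their peak lists and in coverage over background. The 14 lists held 14710 to 58587 peaks, the no dox lists 14710 to 49300 and the +dox lists 36531 to 58587. Coverage at the summit, divided by the library's genome-wide background, had a median of 23.4 to 195 over the 6068 regions with a peak in all 14 libraries. Because of this spread, coverage of a member is given below as relative coverage, the percent of that median within the same library. Peaks at the promoters of Myod1 and of Chrna1, the muscle acetylcholine receptor alpha subunit, stood in the lists of all 14 libraries, and none of the 14 had a deposited peak at the promoters of the liver markers Alb and Hnf4a or the blood markers Ptprc and Spi1.

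In equal-length lists the share of members with a peak separated the arms in both media, as the rule demands. In GM no dox the 4 libraries had a peak at 9.68%, 18.3%, 13.98% and 28.2% of the members (17.5% ± 7.94, SD, n = 4). In GM +dox the 4 values were 80.4%, 75.3%, 76.6% and 79.6% (78.0% ± 2.41, SD, n = 4). In DM no dox they were 17.2%, 12.6% and 22.3% (17.4% ± 4.84, SD, n = 3), and in DM +dox 84.7%, 84.9% and 75.8% (81.8% ± 5.20, SD, n = 3). The difference between arms was 60.4 percentage points in GM and 64.4 in DM. Within replicate numbers 1 and 2 the difference was 63.8 points in GM and 67.5 in DM, where replicate 1 was left out and the value sets 1 library against 1. Within numbers 3 and 4 it was 56.99 and 62.9 points.

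**Figure D1:**
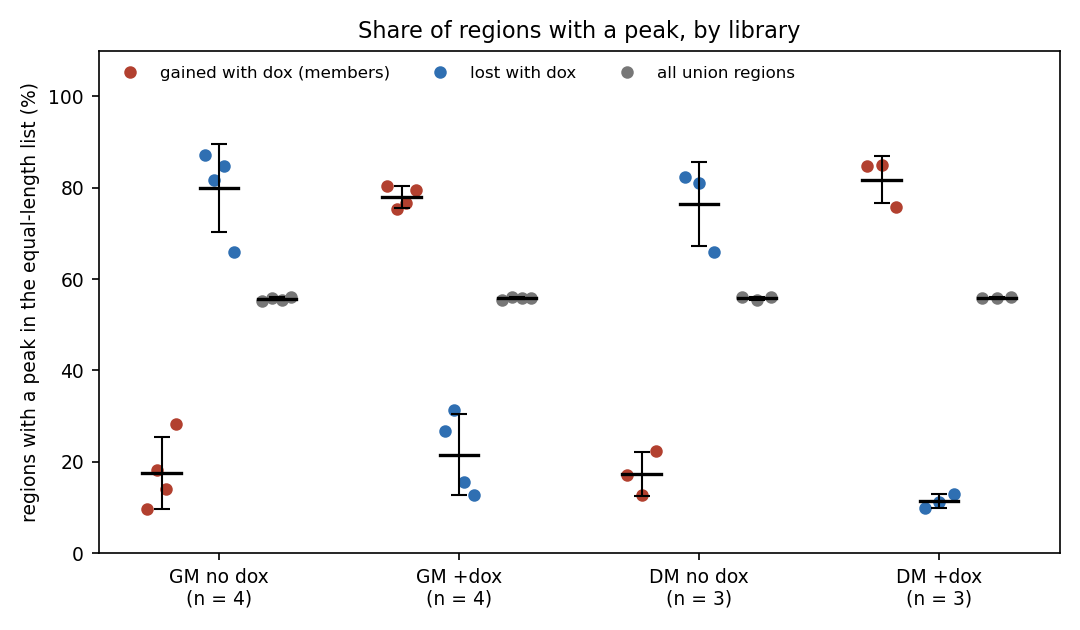
Percent of regions with a peak in the equal-length list of each library (points), for the 372 gained regions, the 322 lost regions and all 26213 regions; bars give the mean and SD over the libraries of a group. The gained regions sit between 9.68% and 28.2% without dox and between 75.3% and 84.9% with it, and the lost regions show the opposite order because the mirrored rule chose them.

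Few members were present in every +dox library and absent from every no dox library. A difference of 4 libraries was reached by 268 members, of 5 by 81, of 6 by 20 and of 7 by 3. The commonest patterns were 5 +dox libraries against 1 no dox library (78 members), 4 against 0 (76), 6 against 2 (57) and 7 against 3 (57). In GM taken alone, a peak in all 4 +dox and none of the 4 no dox libraries was seen at 23 members, against 38 of all regions (0.145%). In DM taken alone, a peak in all 3 +dox and no no dox library was seen at 89 members, against 177 of all regions (0.675%). Those shares of all regions are the background of the 2 patterns, and since the rule used the same peaks nothing is read from the comparison. Just inside the threshold, the 268 members with a difference of 4 had a median dox difference in depth-scaled coverage of 1.07 in GM and 1.39 in DM on the log2 scale. Just outside it, 609 regions with a difference of 3 had medians of 0.96 and 1.29.

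The 3 regions with a peak in all 7 +dox libraries and in none of the 7 no dox libraries lay near Adcy7, in Ptpre and in Iws1. The Adcy7 region (chr8:88265601-88265859, intergenic, 6.66 kb from the nearest start site of this adenylyl cyclase gene) had a relative coverage of 68.9%, 57.9%, 79.7% and 69.6% in GM +dox and 61.6%, 62.2% and 72.6% in DM +dox. Without dox it reached 34.8%, 47.2% and 43.5% in 3 GM libraries and 41.4% in 1 DM library, all below the +dox values, and the lists of the other 3 had no peak there. These no dox peaks stood below the strongest 14710 of their libraries.

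The Ptpre region (chr7:135551546-135551920, in an intron, 13.9 kb from a start site) reached 83.6%, 43.0%, 53.1% and 50% in GM +dox and 78.1%, 57.3% and 40.7% in DM +dox. Without dox it reached 24.2%, 36.1% and 33.7% in 3 GM libraries and 28.7% in 1 DM library. The third region, in an exon of Iws1 (chr18:32097922-32098449), a transcription elongation factor gene, reached 42.6% to 66.1% with dox and 17.9% to 31.1% in the 6 no dox libraries with a peak. At all 3 regions the lowest +dox value was above the highest no dox value, among the libraries with a deposited peak there. The arms did not overlap in this way at 10 of the first 20 members by difference in libraries, and at 37 of all 372. The members were chosen on this contrast, and no such share is given for all regions, so nothing is read from these counts.

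Ankrd2 gave the member closest to a muscle gene's start site among the first 20. Ankrd2 encodes a muscle ankyrin repeat protein of the sarcomere that also enters the nucleus. Its region (chr19:42035286-42035868) lay 0.39 kb from the start site and had a peak in all 7 +dox lists and in 1 no dox list. Relative coverage was 83.6%, 46.7%, 64.1% and 64.3% in GM +dox and 66.9%, 70.7% and 70.8% in DM +dox. In GM no dox it was 28.8%, 30.6% and 64.1%, with no peak in replicate 1, and in DM no dox it was 32.2% in replicate 4 with no peak in the others. The arms overlapped there because GM no dox replicate 4, at 64.1%, lay above GM +dox replicate 2.

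Dot1l held 2 members among the first 20. The stronger one (chr10:80757674-80758035, in an intron) had a relative coverage of 75.0% to 107% with dox, the highest of the 20, and 50% to 71.7% without. The other (chr10:80774104-80774909) had 43.8% to 67.9% with dox and 28.7% to 39.1% without. The remaining members of the first 20 lay in or nearest Ntng2, Med16, Ubap2, Ube2d1, Atp6v1e2, Zfp280d, Lrrn2, Ssbp3, Ccdc102a, Rhbdd1, Cmah, Cass4, Wdfy2 and Mthfd1l. Med16 is a subunit of the Mediator complex, Ssbp3 a co-regulator of LIM-domain factors, Ube2d1 a ubiquitin-conjugating enzyme, Cass4 a scaffold of focal adhesions, and Cmah makes a sialic acid. Of the 20, 14 lay in introns, 3 in exons, 2 at promoters and 1 between genes.

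**Figure D2:**
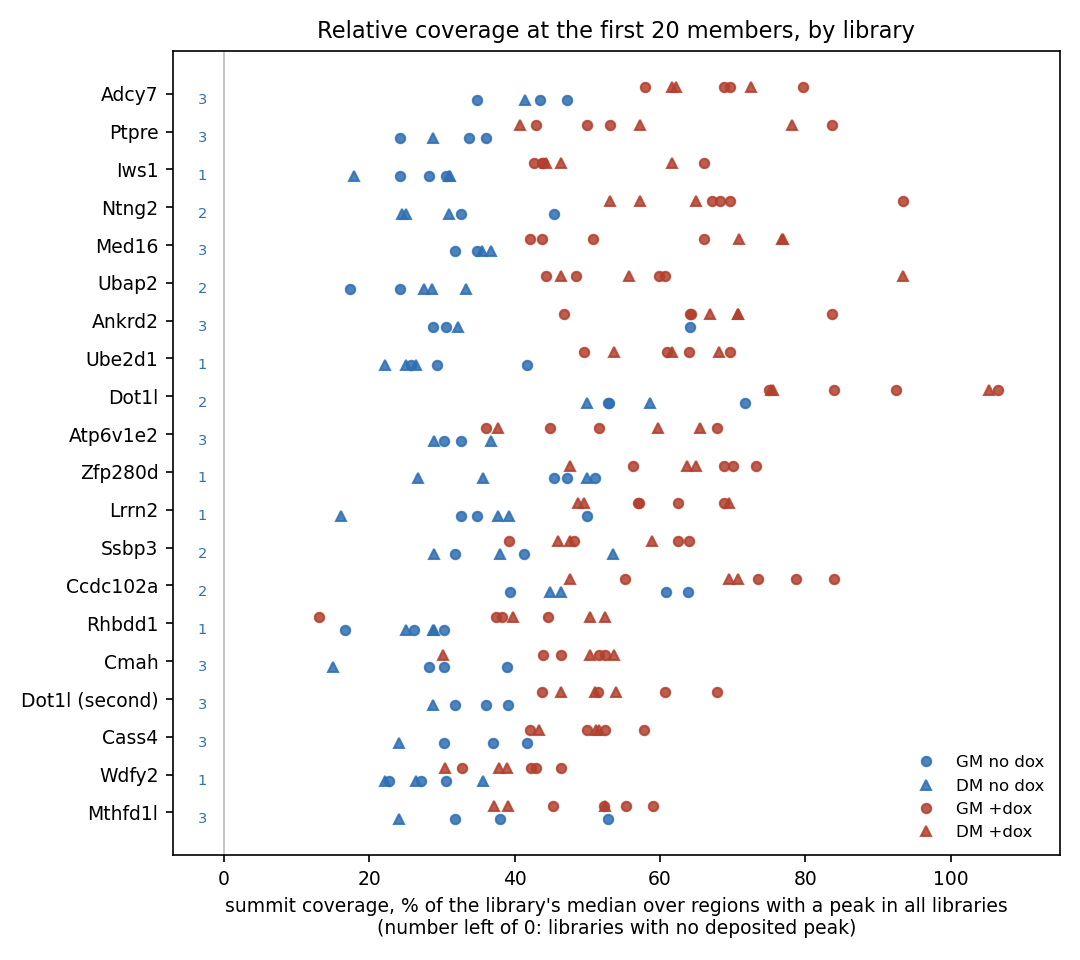
Relative coverage at the first 20 members in each library, in percent of the library's median over the 6068 shared regions; circles are GM and triangles DM, blue no dox and red +dox, and the number left of 0 counts libraries with no deposited peak. At 10 of the 20 members, Adcy7, Ptpre and Iws1 among them, every red point lies to the right of every blue point. The members were chosen on this contrast and libraries with no deposited peak have no point, so nothing is read from that count. At Ankrd2 the GM no dox point at 64.1% lies among the red ones.

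The rule reads a place in the list of peaks and not the presence of any peak. All 372 members had a deposited peak in at least 1 no dox library, as did 26173 of all 26213 regions. In GM no dox the share with any deposited peak was 9.68%, 94.6%, 59.4% and 99.7%, and in DM no dox 52.2%, 64.0% and 96.8%. In the 7 +dox libraries it was 98.9% to 100%. In the 3 no dox libraries with the longest lists it was thus 94.6% or more, and 342 members had a peak in all 3 of them. A peak stood in all 6 of the longer no dox lists at 101 members, and in all 7 at 14 (3.76%), against 42.4% of all and 77.3% of the lost regions. Of the members' peaks in no dox libraries, 1317 lay past the common list length, at a median rank of 18273.

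**Figure D3:**
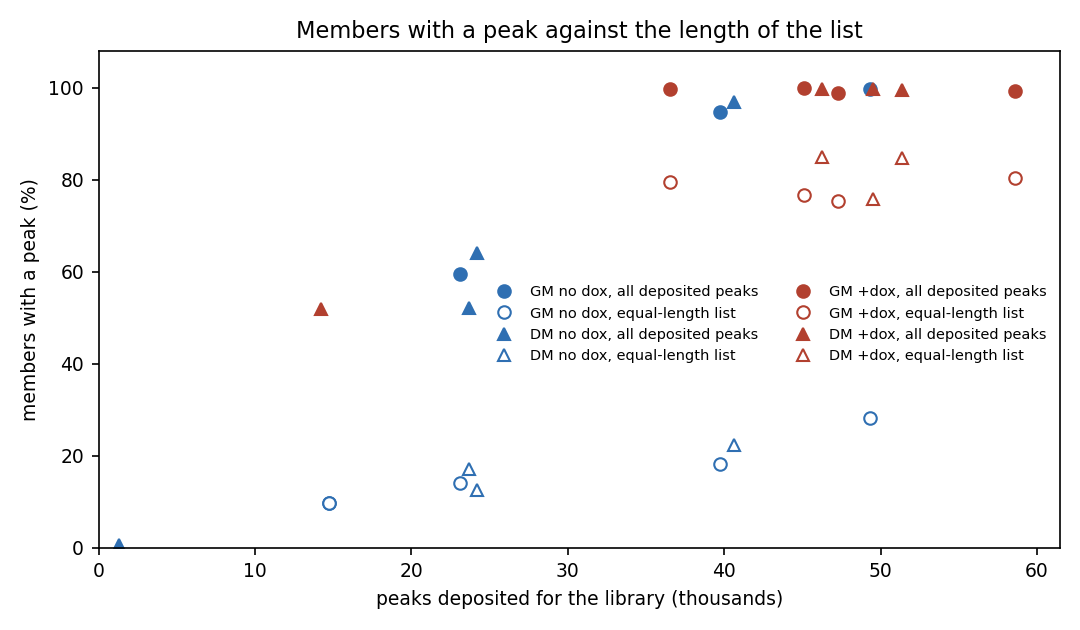
Percent of the 372 members with a peak against the number of peaks deposited for each library, with all deposited peaks (filled) and with the equal-length list (open; at the shortest list the 2 coincide). With all peaks counted the 3 longest no dox lists sit from 94.6% to 99.7%, beside the +dox libraries, and the open points sit apart by arm.

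Even with dox the members were peaks of middle to low strength. The rule favors this, since a region with a peak in every list cannot be a member. The members' 2073 peaks in the +dox lists had a median rank of 10774 of 14710, with quartiles of 8507 and 12856 and a best rank of 916. The lost regions were alike in the no dox lists, with a median rank of 10849 and quartiles of 8245 and 12763.5. Relative coverage was taken over the members with a deposited peak, 368 to 372 with dox and 194 to 371 in 6 no dox libraries. The medians therefore do not cover the same members in each library. Median relative coverage was 46.7% to 57.4% in the 7 +dox libraries and 33.3% to 40.2% in 6 no dox libraries. It was 66.7% in GM no dox replicate 1, where 36 members had a peak. At the lost regions the order was opposite, 28.5% to 45.9% with dox and 44.8% to 72.2% without. On the depth-scaled scale, which does not allow for differences in enrichment between libraries, all regions shifted with dox, by a median of 0.68 in GM and 0.76 in DM on the log2 scale, against 1.10 and 1.44 at the members. Relative to that shift the members were 0.42 higher in GM and 0.68 in DM.

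The libraries set aside in the study gave values the rule had not used. DM +dox replicate 1 has 14236 peaks, so all lists were cut to that length. It had a peak at 51.9% of the members, above the 9.68% to 26.9% of the 7 no dox libraries and below the 71.0% to 79.8% of the other +dox libraries. It had a peak at 28.9% of the lost regions, where the no dox libraries had 59.9% to 84.8% and the other +dox libraries 9.01% to 30.1%. This library covered 44.9% of all regions, against 53.6% to 54.2% in the other 14, which are the libraries the regions were built from. DM no dox replicate 1 has 1287 peaks and covered 2 members (0.54%) and 4.77% of all regions. At that length each of the other libraries covered 0 or 1 member, with 0 in every no dox library, so this library did not stand below the +dox libraries.

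Which regions the rule chose depended on the length of the lists. With the 10000 strongest peaks of each library the rule gave 241 gained and 211 lost regions, and 54 of the 372 members remained. With 7355 peaks it gave 170 and 152, and 10 members remained. With peaks ranked by fold enrichment in place of the p-value it gave 563 and 555, and 161 remained. With all deposited peaks it gave 8547 gained and 5 lost regions, and 58 remained. The last setting compares lists of unequal length, which were longer with dox.

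The members were richer in MyoD1-type E-boxes than the lost regions and than all regions. Within 100 bp of the summit, CAGCTG stood in 132 of the 372 members, 35.5% (exact 95% interval 30.6% to 40.6%, counting error only). The share was 13.7% of the lost regions and 18.7% of all regions. CAGGTG stood in 15.6% of the members, 4.97% of the lost and 8.64% of all regions. At least 2 copies of these E-boxes, counted together, stood in 13.4%, 1.24% and 4.35%. The general form CANNTG, which includes both, stood in 74.2%, 67.7% and 61.9%. Of the other E-box spellings, CAGATG stood in 23.9% of members and 15.6% of all regions, and CAAATG in 8.33% and 9.83%.

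The TEAD element CATTCC showed a similar order, in 31.5% of the members, 9.94% of the lost and 16.98% of all regions. The AP-1 element was the most frequent of the 4 in the lost regions, at 51.6%, and stood in 34.4% of the members and 33.9% of all regions. TGTGGT stood in 29.0%, 30.1% and 23.4%. GGGCGG, the element of SP and KLF factors common at promoters, stood in 16.7%, 10.9% and 28.5%. CAGCTG and CATTCC stood together in 42 members, 11.3%, against 0.932% of the lost and 3.55% of all regions.

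**Figure D4:**
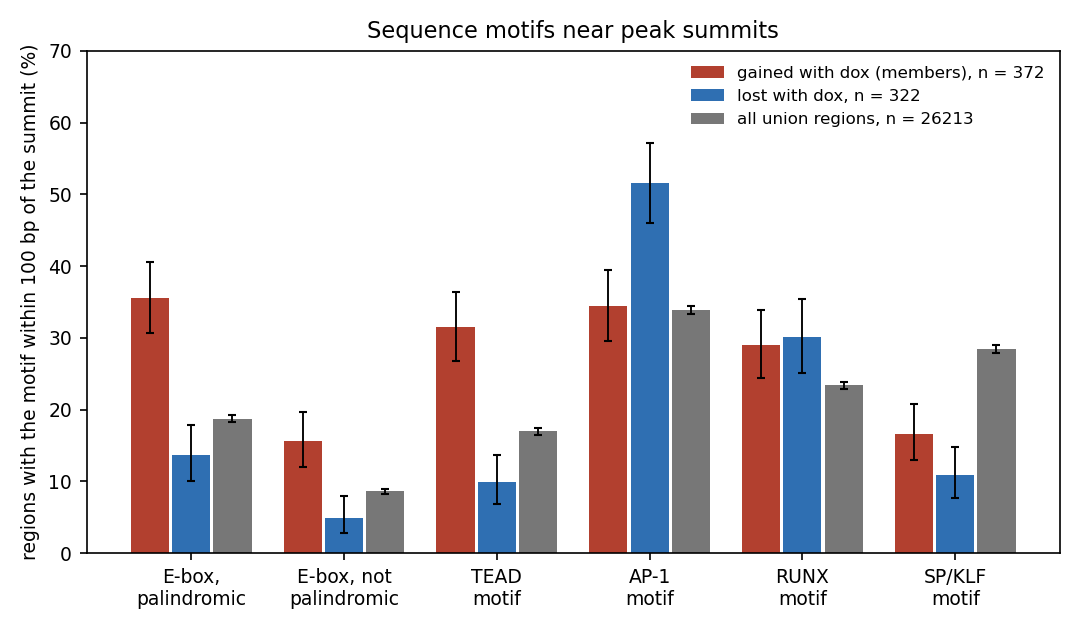
Percent of regions with each motif within 100 bp of the summit, in the 372 gained regions, the 322 lost regions and all 26213 regions, with exact 95% intervals for counting error. The palindromic E-box is CAGCTG (35.5%, 13.7% and 18.7%), the other E-box CAGGTG, and the TEAD, AP-1, RUNX and SP/KLF motifs are those given in the text.

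CAGCTG and CATTCC kept their order of gained, all and lost regions away from start sites. More than 1 kb from a start site, CAGCTG stood in 38.0% of the gained, 14.8% of the lost and 22.8% of all regions, and CATTCC in 33.0%, 10.9% and 21.9%. The AP-1 element stood in 38.3% of the distal members, 59.1% of the distal lost and 49.5% of all distal regions, so distal members lay below all distal regions, which was not so over all positions (34.4% and 33.9%). GGGCGG stood in 9.90% of the distal members, 4.67% of the distal lost and 8.13% of all distal regions, against 16.7%, 10.9% and 28.5% over all positions. With the window set on the summit of the strongest no dox peak, CAGCTG stood in 33.9% of the members, and no other set was computed with that summit. Regions with a peak in 4 to 10 libraries, the same breadth as the members, had CAGCTG in 19.2%. The members' GC content had a median of 53.2%, against 50.2% in the lost and 54.2% in all regions. Within 50 bp of the summit CAGCTG stood in 21.8% of the members, and anywhere in the region in 53.8%.

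In the sets rebuilt from other lists the share of CAGCTG was close to that in the members. Of the 170 gained regions from lists of 7355 peaks, 35.3% had it, against 12.5% of the 152 lost ones, and of the 160 that were no members, 35.6% had it. With 10000 peaks the shares were 36.1% and 15.2%, and with ranking by fold enrichment 32.7% and 16.4%. In the 8547 regions gained with all deposited peaks it was 26.6%, against 19.9% of all 80287 regions of that set. These rebuilt sets use the same libraries and are no independent samples.

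Among the members, those with a larger difference held the E-box more often. CAGCTG stood in 44.2% of the 104 members with a difference of 5 or more, 32.1% of those with a difference of 4, and 27.9% of the 609 regions just outside the rule. The difference is the value the rule used, so this is a description. Promoters made up 8.65%, 22.4% and 29.4% of these groups, in the same order. The share of CAGCTG was not compared between them at equal position. Of the 42 members with CAGCTG and CATTCC, 22 had a difference of 5 or more, against 104 of 372 overall. None of the 4 elements marked in the printed windows was found in 95 members (25.5%), against 35.1% of the lost and 42.5% of all regions.

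Members lay mostly away from start sites. In the GENCODE M21 annotation 303 of 372 (81.5%) were more than 1 kb from any start site, against 60.6% of all regions and 79.8% of the lost regions. Introns held 183 members (49.2%), intergenic sequence 104, promoters within 1 kb 69 (18.5%) and exons 16, while promoters made up 39.4% of all regions. The median distance to a start site was 7.73 kb, against 3.50 kb for all regions. Members were 536.5 bp wide in the median (168 to 1438 bp), against 620 bp for all regions. They were scattered over the genome. The share of regions that were members ran from 0.921% on chromosome 6 to 2.37% on chromosome 15, with 34 members there. No member lay within 10 kb of another, and 9 lay within 50 kb of the previous one.

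The members fell in or nearest 361 protein-coding genes, 11 of which had 2 members: Azin1, Camk2n1, Camkk1, Cnksr3, Dot1l, Efemp1, Il17b, Pacsin2, Slc11a2, Ssbp3 and Trabd2b. Gene lists for muscle and adhesion were then laid over them, a region counting for a gene when it lay in the gene or had its start site as the nearest within 100 kb. None of the lists is large enough for a statement about a pathway, and their counts stand beside 1.42%, the share of all regions that were members.

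Among myogenic regulators a member lay 35.0 kb from Eya2, a transcriptional co-activator in muscle progenitors. The Eya2 region had a peak in 6 +dox lists and 1 no dox list, with a relative coverage of 35.4% to 67.3% against 29.9% to 42.2%. The arms overlapped there, since DM +dox replicate 4, at 35.4%, lay below the highest no dox values. Of 28 regions at the genes of the sarcomere and contraction list, which did not hold Ankrd2, none was a member. None of the 16 regions at the 5 adhesion genes that the study expressed from transgenes was one. Both lists have too few regions to read an absence from.

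At the neuromuscular synapse list 1 of 14 regions was a member, at the promoter of Rapsn, the scaffold that clusters acetylcholine receptors. It had a peak in 7 +dox and 2 no dox lists, at 41.1% to 77.0% with dox and 36.1% to 40.9% without. Among integrins 1 of 55 regions was a member, 2.19 kb from Itga7, the laminin receptor chain of muscle. Relative coverage there was 83.6%, 83.2%, 56.3% and 64.3% in GM +dox and 129%, 112% and 82.3% in DM +dox, and 57.6%, 44.4% and 43.5% in GM no dox and 102%, 60.7% and 66.7% in DM no dox. At this region the DM no dox libraries overlapped the GM +dox ones. Among myoblast fusion genes 1 of 49 regions was a member, 42.6 kb from Dock1, a Rac activator, and coverage there was low, 15.6% to 42.6% with dox.

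Adhesion and junction genes gave 6 members. Of 80 regions at cadherins and immunoglobulin-type adhesion genes 3 were members, 35.4 kb from Cd44 (the hyaluronan receptor), 53.9 kb from Nectin1 and in an intron of Cdh2 (N-cadherin). The Cdh2 region had a peak in 4 +dox lists and no no dox list, at 28.6% to 69.5% with dox and 12.1% to 23.9% without, with no overlap. At Nectin1 the arms did not overlap either, with a lowest +dox value of 49.6% and a highest no dox value of 42.4%. At Cd44 they overlapped, with 47.6% and 75.6%. Of 137 regions at junction and focal adhesion genes 3 were members, in or nearest Ctnnb1 (beta-catenin), Jup (plakoglobin) and Tns3 (a tensin). The arms overlapped at all 3. The lowest +dox and highest no dox values were 40.2% and 66.3% at Ctnnb1, 34.1% and 65.2% at Jup, and 31.8% and 54.3% at Tns3. In DM the Jup region had a peak in 1 +dox list. Of 178 regions at extracellular matrix genes 3 were members, in introns of the neighboring collagen IV genes Col4a1 and Col4a2 and 21.02 kb from Sparc. Both collagen regions had a peak in 5 +dox lists and in no no dox list. At Col4a1 coverage was 29.2% to 105% with dox and 28.7% to 57.1% without.

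In the signaling and AP-1 lists that held members, 1.16% to 2.11% of the regions were members, near the 1.42% of all regions. The TGF-beta and BMP list had 2 of 95 regions, at the promoters of the receptors Bmpr1a and Acvr2b. The Wnt and TEAD list had 2 of 105, 28.4 kb from Wnt7b and at the promoter of Tead3, which encodes one of the TEAD factors. The Notch list had 1 of 86, 9.66 kb from the ligand Dll4, and the AP-1 and ATF list 1 of 51, 36.6 kb from Atf3. At Atf3 coverage was 31.8% to 41.7% in the 3 GM no dox libraries with a peak and 40.2% to 65.6% in GM +dox. It was 96.4% and 123% in DM no dox replicates 3 and 4, with no peak in replicate 2, and 66.2%, 76.8% and 101% in DM +dox. The arms overlapped in both media. None of 127 regions at growth factor and receptor genes was a member.

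The medium was a contrast the rule did not use directly, and was tested by limma over all 26213 regions with dox as a term. The rule still asks for at least 1 +dox library with a peak in each medium, so a region absent from either medium could not be a member. On log2 depth-scaled coverage none of the 372 members passed an adjusted p of 0.05 (limma, Benjamini-Hochberg), and 3 had an unadjusted p under 0.05. Of all regions 0.469% were higher in DM and 0.00381% lower. The members' median DM minus GM difference was -0.03, with quartiles of -0.28 and 0.21 and a median standard error of 0.48. The largest member difference, -1.44 at the Palm3 promoter, had an adjusted p of 0.42 (limma), so the lack of calls does not show that the media were alike.

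On centered values, in which each library's median over the 6068 shared regions was subtracted, the median standard error at members was 0.15. That scale was chosen after the values were seen. Then 4 members were higher in DM and 9 lower, against 2.35% and 5.65% of all regions, so 1.08% and 2.42% of the members were called. With the replicate number as a block none was called on depth-scaled coverage, against 0.504% higher and 0.00381% lower of all regions, and on centered values 8 members were higher and 14 lower, against 3.25% and 7.27% of all regions.

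The 4 members higher in DM on centered values were the regions 52.5 kb from Tmem64 (log2 difference 0.85, SE 0.20), 2.19 kb from Itga7 (0.67, SE 0.17), 63.0 kb from Cdc42ep3 (0.51, SE 0.15) and in Stam (0.49, SE 0.13). At Tmem64 coverage was 32.1% to 65.5% in DM no dox and 23.9% to 27.8% in GM no dox, and 85.4% to 140% in DM +dox and 29.7% to 56.1% in GM +dox, so DM was higher within each arm with no overlap. The 9 lower ones were led by an intron of Col27a1 (-0.97, SE 0.27) and the promoter of Palm3 (-0.97, SE 0.25). At Palm3 no DM no dox library had a deposited peak, and coverage was 24.8% to 60.9% in DM +dox and 67.9% to 148% in GM +dox. Among the others were regions in or nearest Vcpkmt, Golga7b, Defb42, Il5 and Thsd4, with differences from -0.80 to -0.45.

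**Figure D5:**
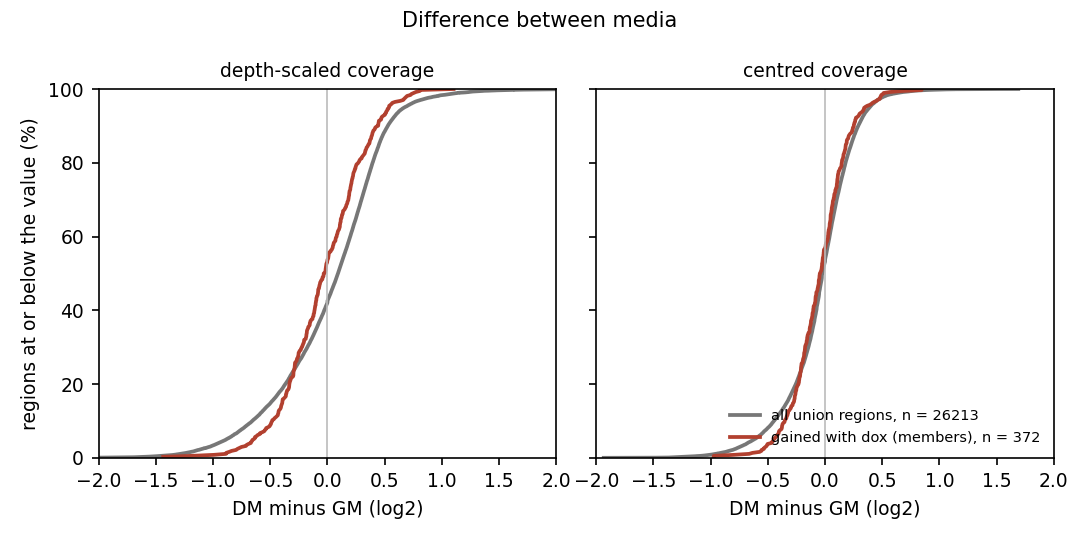
Cumulative percent of regions at or below each DM minus GM difference (log2), for the 372 members and all 26213 regions, on depth-scaled coverage (left) and on centered coverage (right). For members and all regions in that order, the medians are -0.03 and 0.09 on the left and -0.04 and -0.02 on the right. The lower quartiles are -0.28 and -0.27 on the left and -0.21 and -0.19 on the right. The upper quartiles are 0.21 and 0.35 on the left and 0.11 and 0.14 on the right.

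Counts of libraries with a peak were spread to both sides of 0 within each arm. Without dox the share of libraries was higher in DM at 124 members, lower at 129 and equal at 119. With dox it was higher at 139, lower at 132 and equal at 101. The mean difference was -0.16 percentage points without dox and 3.85 points with dox.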

How the data were processed

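ATAC-seq peak lists of 16 libraries were analysed. Per the labels the authors used MACS2 and deepTools and the mm10 build, and the deposited narrowPeak lists were called per library. In them the authors gave each peak a score, a fold enrichment (ratio of summit coverage to background), a −log10 p-value and a −log10 q-value; the lowest −log10 q of any list was 1.30. Read depth is not given in the sources used here. From fold and p, whole-number summit coverage was recovered and divided by the library's genome-wide background (depth-scaled coverage); missing values were set to a common floor of 11.8. All 16 lists were read, and replicate 1 of both DM groups was left out as in the study.

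Peaks were ranked by −log10 p, cut to 14710 and merged where they touched or shared a base. The members and the gene lists were chosen with earlier results of these data known. Named members are the first 20 by difference in libraries, ties by mean −log10 p under dox, and up to 4 genes for each list. Sequences came from the RefSeq GRCm38 assembly and positions from GENCODE M21; motifs were searched on both strands within 100 bp of the summit. Medium was tested with limma 3.58.1 (R 4.3.3, trend, dox as a term, Benjamini-Hochberg adjustment), and the steps were tested on simulated data. Replicates are labelled biological replicates, with no source named beyond that, so p-values measure the spread between these libraries. Deviations of same-numbered libraries from their group means correlated at 0.16 to 0.59. Differently numbered libraries were not compared, so pairing by number is not shown. The replicate number was also fitted as a block. Alternatives covered the list, its ranking and overlap, the motif window, the values and the libraries. A few results are not reported here.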

Additional observations from a re-analysis of the deposited data

Results flagged for a closer look

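1 value in a library outside the comparisons stood above the no dox level: DM +dox replicate 1, which the rule had not used, had a peak at 51.9% of the members, against 9.68% to 26.9% in the 7 no dox libraries cut to the same length. This library was set aside in the study, and its list is shorter and overlaps all regions less (44.9%).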

How the results depend on the processing

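The number of members was 372, and 385 with windows of 100 bp around summits. It was 8547 with all deposited peaks, 8529 with those of −log10 q of at least 2, 170 with 7355 peaks, 241 with 10000, 563 with ranking by fold enrichment, 693 with all 16 libraries, 104 with a difference of at least 5 and 981 with at least 3. Leaving out 1 library at an unchanged difference of 4 gave 148 to 618. By construction it was 148 to 185 without a +dox library, of which any of the 7 moved it by over 1.5 times. It was 476 to 618 without a no dox library, over 1.5 times for GM no dox replicates 2 (570) and 4 (618) and DM no dox replicate 4 (606). The share with CAGCTG, 35.5%, was 21.8% within 50 bp, 53.8% over whole regions, 74.2% for any E-box, 15.6% for CAGGTG and 26.6% in the set from all deposited peaks, and by construction the wider window or looser motif finds more. The share over 1 kb from a start site, 81.5%, was 72.6% over 2.5 kb. Members called for medium were 0 in each of the 26 planned or added fits that were not centered or held 1 dox arm, and became 13 when centered and 22 when centered with the replicate block. The +dox minus no dox difference, 60.4 points in GM and 64.4 in DM, became 33.6 and 28.7 with all deposited peaks and was 57.8 to 64.0 and 62.1 to 67.4 without 1 library. The replicate block gave 372 members and 60.4 and 64.4 points again; it cannot alter either by construction, so these say nothing of stability. The cause of these moves was not tested where none is named. The members' median DM minus GM difference, -0.03 on the log2 scale and not called, was above 0 in 13 of 28 other fits and ranged from -0.27 to 0.18 over them, so it has no stable sign. Depth is unknown, intervals cover counting error only, and the number of libraries limits all comparisons.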
